A study of Mus musculus with 24 samples.

Results

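Polyribosomal RNA was compared with total RNA from the same lysates of WT mouse cerebral cortex. The comparison used 12 of the 24 arrays of the series, 6 of polyribosomal and 6 of total RNA, chosen by their labels and paired by the number of the lysate. The mice were FVB males at postnatal day 7, wild type at Fmr1, and each lysate held the cortices of 2 mice with the white matter removed, so a replicate was a pool and not an animal. Tissue was kept in cycloheximide, which holds ribosomes on mRNA, and the lysate was cleared at up to 20000 g, which takes nuclei out of both RNAs. Total RNA came from 20% of the cleared lysate. The rest went over a 20% to 50% sucrose gradient collected in 16 fractions, and polyribosomal RNA was the pool of fractions 10 to 13, where mRNAs carry 6 or more ribosomes. Labelling started from 10 µg of either RNA, and Affymetrix Mouse 430 2.0 arrays were used throughout. The series also holds 6 polyribosomal and 6 total arrays from Fmr1 KO littermates of the same strain, sex and age, prepared alike; these lack Fmr1, which encodes FMRP, a protein that binds RNA, and served here only to ask whether the WT pattern was seen a second time in other lysates.

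Ribosomes that translate the same mRNA form a polyribosome, and the number that fits depends on the length of the coding sequence as well as on how often translation starts. A heavy-polyribosome pool is therefore poor in noncoding RNAs, in mRNAs whose coding sequence is too short to hold many ribosomes, and in mRNAs held back from initiation. A lower value in such a pool does not show that an mRNA was untranslated. Because equal amounts of RNA were labelled and the arrays were normalized, each value is relative. A difference of 0 means that a transcript was taken into the pool about as well as the average one, and "higher" and "lower" below always mean in polyribosomal against total RNA.

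Most transcripts differed between the RNAs, and large differences were mostly falls. The file held 45037 probe sets, each a set of short probes for 1 transcript, with values on a log2 scale. A probe set was tested if it reached a log2 value of 4, the limit used here for a dim signal, in at least 6 of the 12 arrays. This kept 17893 probe sets, which stood for 9726 genes with 1 probe set per gene, the brightest. With limma, the lysate as a block and a Benjamini-Hochberg adjusted p under 0.05, 3646 genes were higher (37.5% of the genes tested) and 2762 were lower (28.4%), 65.9% in all. Large differences ran the other way. By at least 1 on the log2 scale, which is a doubling or more, 199 genes were higher (2.05%) and 777 were lower (7.99%). By at least 2, 114 genes were lower and 2 were higher. Differences of all genes had a median of 0.09, with a 5th percentile of -1.25 and a 95th of 0.84, and ran from -4.93 to 2.64. Of the 777 genes lower by at least 1, 775 were lower in 6 of 6 lysates, and all 199 on the higher side were higher in 6 of 6. These genes were picked for large differences in the same lysates, so such agreement follows largely from the choice. Of all 9726 genes, 2423 were lower and 3168 higher in 6 of 6 lysates. Polyribosomal values lay all below the total values for 1785 of the 9726 and all above them for 2114, so a lack of overlap was common. A filter of this kind admits a transcript through its brighter RNA alone. Of the 351 probe sets that reached the limit in exactly 6 arrays the median difference was -0.60, against 0.02 for the 245 that reached it in 5 arrays and were left out. Among the 9726 genes, 72 reached the limit in every total array and in no polyribosomal array, and 24 the reverse.

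**Figure D1:**
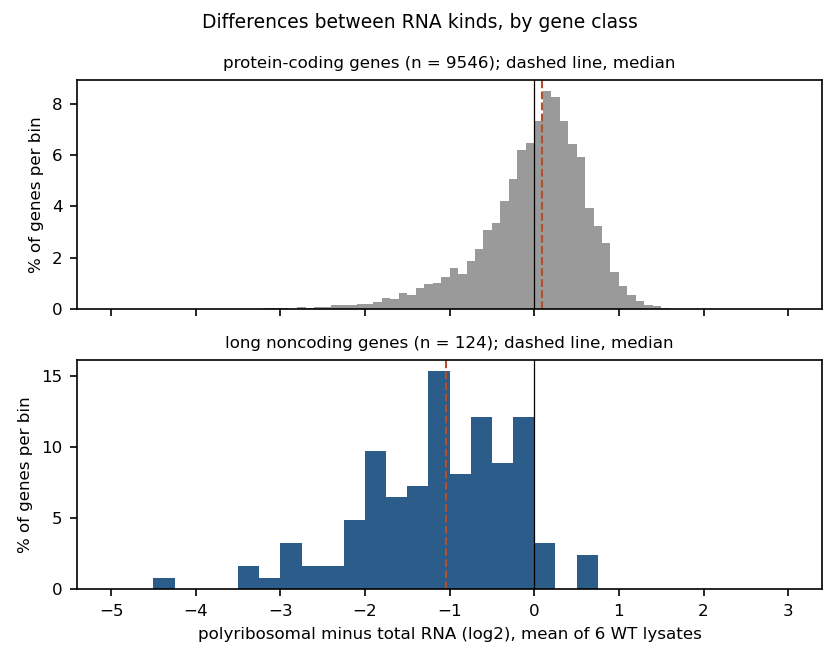
Distribution of the polyribosomal minus total difference (x axis, log2, mean of 6 WT lysates) for 9546 protein-coding genes (top) and 124 long noncoding genes (bottom); the y axis is the percentage of genes per bin, the solid line marks 0 and the dashed line the median. Protein-coding genes peak just above 0 with a long tail to the left, and noncoding genes lie mostly below 0.

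The arrays of each RNA were close to one another. Across the tested probe sets Pearson's r was 0.992 to 0.996 between total arrays, 0.979 to 0.993 between polyribosomal arrays and 0.940 to 0.961 between an array of either kind. The median SD between arrays was 0.137 in total and 0.229 in polyribosomal RNA. The number of arrays limits the precision, with a median SE of 0.100 for a difference. Lysate 4 stood apart: its differences correlated with those of the other lysates at a mean of 0.763, where the other 5 had 0.817 to 0.862. Without lysate 4, 231 genes were higher and 815 lower by at least 1 (2.38% and 8.38%). Of the fixed marker lists, all 11 excitatory neuron and all 11 interneuron markers passed the filter, as did 5 of 9 markers of other brain regions and 3 of 10 of choroid plexus and meninges. None of 7 red blood cell genes reached the dim limit at probe sets of 1 gene. Ttr, the transthyretin gene that marks the choroid plexus, had total log2 values of 11.43, 10.72, 3.37, 10.93, 6.92 and 10.20 in lysates 1 to 6. Its polyribosomal values were 3.74 and 7.54 in lysates 3 and 5 and between 11.28 and 12.19 in the others. Lysates 3 and 5 were low in both RNAs. In lysate 3 both values lay under the dim limit, so the direction in that lysate is uncertain. Ttr was higher in 6 of 6 lysates, by 0.85 (SE 0.13, adjusted p = 0.000132), at a probe set of the _x_at kind, which can also bind related transcripts; at its other 3 probe sets the difference was 0.78 to 1.05. In bulk RNA, fewer cells of a type and less RNA per cell cannot be told apart, and the part of choroid plexus in other results was not tested.

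ND5 led the falls. It is a subunit of respiratory complex I encoded by the mitochondrial genome and translated on mitochondrial ribosomes. Its total values lay between 10.84 and 11.28. Its polyribosomal values were 6.52, 5.32, 6.77, 6.60, 6.31 and 5.23 in lysates 1 to 6, so every lysate lost it and lysates 2 and 6 lost most. The mean difference was -4.93 (SE 0.18, adjusted p = 8.04e-09), or 30.4-fold. ND5 was the only mitochondrially encoded transcript among the genes tested.

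Other large falls were split between noncoding RNAs and mRNAs of very small proteins. Of the 15 largest falls at probe sets without _x_at or _s_at ending, 6 were of noncoding RNAs: Snhg8 at -4.29, Gas5 at -4.22, Malat1, which dropped below the dim limit in the pool, A530058N18Rik at -3.49, Meg3 at -3.21 and Snhg1 at -3.07. The brightest probe sets of Gas5 and Meg3 stood at -3.48 and -1.88. Among the mRNAs, Selenow, the gene of selenoprotein W, had total values of 11.05, 10.92, 10.69, 10.66, 10.61 and 10.68 and polyribosomal values of 6.88, 6.94, 5.78, 6.59, 5.54 and 5.88. No polyribosomal value came near a total one. The difference was -4.50 (SE 0.15, adjusted p = 4.97e-09), and -3.40 at the gene's brighter _x_at probe set. Timm8b, a chaperone of the space between the mitochondrial membranes, stood at 10.07 ± 0.12 in total and 6.54 ± 0.26 in polyribosomal RNA (SD, n = 6), a fall of 11.6-fold. Uqcc2, an assembly factor of respiratory complex III, went from 10.93 ± 0.11 to 7.83 ± 0.23 (SD, n = 6), 8.57-fold. Bola2, which works with glutaredoxin in iron handling, went from 8.69 ± 0.14 to 5.66 ± 0.16 (SD, n = 6), 8.20-fold. Gng13, a G protein gamma subunit, fell from 6.31 to below the dim limit, so only a bound holds for it, at least 4.95-fold. The kinase inhibitor gene Pkig at -3.41 and the membrane protein gene Tmem256 at -3.14 completed the small ones. Bend6, a transcriptional corepressor of ordinary size, was the exception. Its total values were 10.44, 10.53, 10.45, 10.29, 10.51 and 10.39 and its polyribosomal values 7.38, 7.52, 7.23, 7.64, 7.15 and 7.17, a difference of -3.09 (SE 0.10, adjusted p = 4.46e-09) with hardly any spread.

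The rises were smaller and less alike. Fxr2, an autosomal relative of Fmr1 whose protein also binds RNA on ribosomes, had total values of 5.66, 5.69, 5.47, 5.88, 5.31 and 5.31 and polyribosomal values of 8.28, 8.20, 8.24, 7.54, 8.21 and 8.70. Lysate 4 rose least, but its polyribosomal value still lay above every total value. The difference was 2.64 (SE 0.17, adjusted p = 2.95e-07), or 6.23-fold. The other relatives did not follow it: Fxr1 was lower by 0.49 (SE 0.091, adjusted p = 0.000652), and Fmr1 stood at 0.24 (adjusted p = 0.0917). Eepd1, an endonuclease-family gene of DNA repair, went from 4.11 ± 0.34 to 6.48 ± 0.28 (SD, n = 6), 5.15-fold. Tspyl5, of the nucleosome assembly protein family, went from 8.59 ± 0.13 to 10.34 ± 0.18 (SD, n = 6), 3.37-fold. Next came Rps4l at 1.72 and, in order, the linker histone H1f2 at 1.67, the chromatin protein gene Hmgb2 at 1.63 and the POU transcription factor gene Pou3f1 at 1.62. Gm5124 and Nfkbia stood at 1.54 each; the second encodes the inhibitor that holds NF-κB in the cytoplasm. The peroxidase gene Prdx2 followed at 1.54, Cryl1 at 1.52, the endocytosis gene Pacsin1 at 1.51, the mitochondrial ribosome gene Mrpl19 at 1.50, and Eipr1 and the Mediator subunit gene Med16 at 1.48 each. For 5 of these 15 the named probe set was not the gene's brightest, and the brightest moved the same way by less: 0.96 for H1f2, 1.06 for Hmgb2, 0.58 for Pou3f1, 1.13 for Nfkbia and 0.56 for Prdx2. Rps4l and Gm5124 are listed as transcribed pseudogenes by RefSeq, yet were enriched among transcripts on 6 or more ribosomes; Rps4l resembles the ribosomal protein gene Rps4x, whose own probe set was lower by 0.40, so the value of Rps4l is uncertain.

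**Figure D2:**
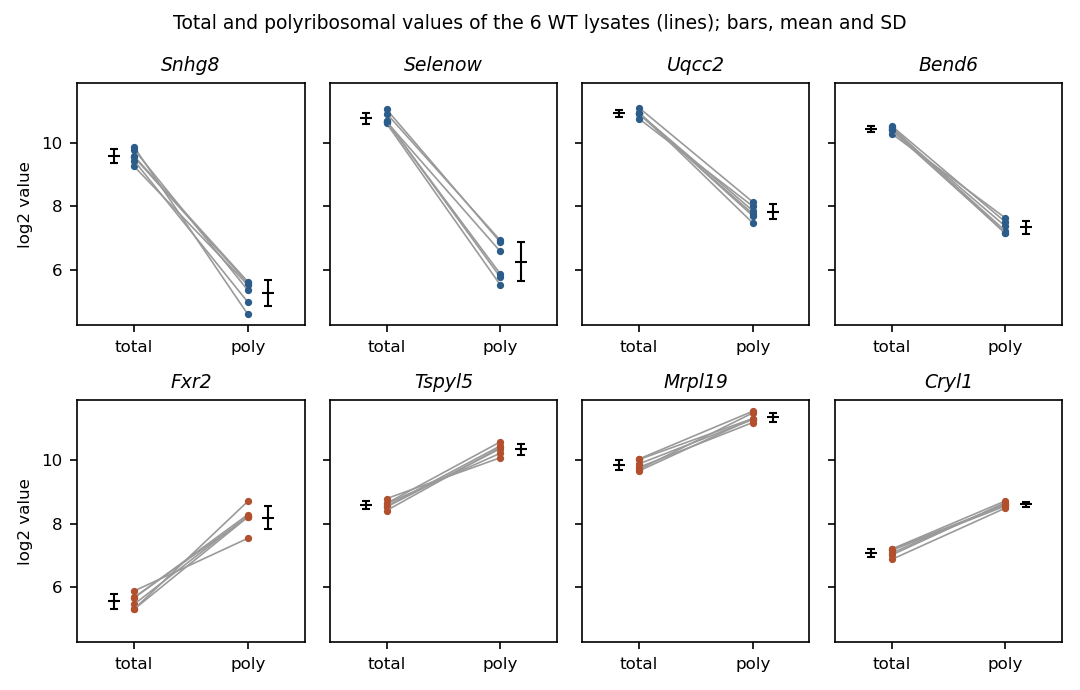
Log2 values in total and polyribosomal RNA of 4 transcripts with large falls (top row) and 4 with large rises (bottom row); each line joins the RNAs of 1 of 6 WT lysates, and the bars beside the points are the mean and SD. In none of the 8 do polyribosomal and total values overlap, which also held for 1785 genes with falls and 2114 with rises among the 9726 tested.

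Noncoding RNAs as a class were low in the pool. RefSeq lists 1355 long noncoding genes on the array, of which 124 passed the filter. Of these 101 were lower (81.5%, against 28.4% of all genes) and 66 by at least 1 (53.2% against 7.99%), with a median difference of -1.04. The medians of the 6 lysates ran from -1.20 to -0.94. The filter bears on this count, since 18 of the 124 reached the dim limit only in total RNA and none only in polyribosomal RNA. Genes that host small nucleolar RNAs in their introns, and whose spliced exons are mostly a by-product, were sought by position alone. Neither strand nor place in an intron was checked, so a small RNA within a gene's span need not come from its transcript. Of 16 noncoding genes with an annotated small nucleolar RNA within their span, 15 were lower, with a median of -1.85, and none was higher (1 without lysate 4). The 249 protein-coding genes that also carry one had 31.3% higher and 37.3% lower and a median of -0.10, where all protein-coding genes had 38.1% higher, 27.6% lower and a median of 0.10. Genes with a microRNA within their span, found in the same way, showed the same split. Of 12 noncoding ones 10 were lower (median -1.51), among them the neuronal Mir124-2hg at -2.02. Of 460 protein-coding ones 156 were higher and 103 lower (median 0.09). Snhg8 had total values of 9.55, 9.26, 9.87, 9.58, 9.44 and 9.79 and polyribosomal values of 5.59, 5.53, 4.61, 5.64, 5.00 and 5.37, with the lowest in lysate 3. Malat1, a nuclear RNA, fell below the dim limit at 1 probe set, at least 5.77-fold, and its brightest probe set stood at -2.60. Meg3, an imprinted RNA abundant in neurons, fell by 1.88 at its brightest probe set, from 12.18 ± 0.23 to 10.29 ± 0.32 (SD, n = 6), and by 1.46 to 3.21 over its 11 probe sets. Oip5os1 at -2.29 and Pantr1 at -2.05 were further neuronal noncoding RNAs that fell. On the other side, 3 of the 124 were higher: B930095G15Rik at 0.60 (SE 0.092, adjusted p = 0.000151), A930004D18Rik at 0.61 (SE 0.13, adjusted p = 0.00147) and Kantr at 0.71 (SE 0.10, adjusted p = 0.000122). For Kantr this held for the brightest probe set only, since another stood at -0.46 (adjusted p = 0.00225). Among the 1438 probe sets that carry either no symbol or more than 1, 181 were lower by at least 1 (12.6%), against 7.92% of those with 1 symbol and 8.29% of all.

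Proteins of the cytosolic ribosome are made from short mRNAs that begin with a run of pyrimidines, through which growth signals switch their translation on and off. Of 42 such mRNAs tested, 35 were lower (83.3%, against 28.4% of all genes), 6 did not pass and 1 was higher (2.38% against 37.5%). Their median was -0.77, against 0.09 for all genes. Small-subunit mRNAs lay lower (18 of 19 lower, median -1.02) than large-subunit mRNAs (17 of 23 lower, median -0.40), a division made after the values were seen and not tested as a difference. Rpl41, the shortest of them, stood at 11.03 ± 0.07 in total and 8.46 ± 0.22 in polyribosomal RNA (SD, n = 6), a 5.96-fold fall. Rps26 had total values of 12.82, 12.85, 12.85, 12.86, 12.89 and 12.95 and polyribosomal values of 10.75, 11.04, 11.14, 10.92, 10.98 and 11.22. No values overlapped, and it fell by 1.86 (SE 0.084, adjusted p = 2.41e-08). Rps15 fell by 1.90 and Rpl22 by 1.62. The single riser was Rpl7l1 at 0.67, which encodes a nucleolar protein rather than a standard ribosomal one. Many probe sets here are of the _a_at, _s_at or _x_at kind, because ribosomal proteins have many processed copies. With plain probe sets alone 10 ribosomal protein mRNAs were called lower.

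Windows around the RefSeq start sites (GRCm38.p6) of the 3 ribosomal protein genes with the largest falls among those holding CTTTC are shown because they carry the pyrimidine run; each has 30 bases before and 30 from the start site on, and capitals mark CTTTC.
Rps26, chr10:128626477-128626536, minus strand: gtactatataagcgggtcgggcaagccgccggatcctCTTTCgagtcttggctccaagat
Rpl38, chr11:114668550-114668609, plus strand: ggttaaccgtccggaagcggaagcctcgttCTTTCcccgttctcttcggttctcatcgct
Fau, chr19:6057917-6057976, plus strand: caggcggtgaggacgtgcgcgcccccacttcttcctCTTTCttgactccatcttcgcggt
These 3 mRNAs fell by 1.86, 1.36 and 1.35 on the log2 scale. Searching such 60-base windows for CTTTC or CTTTT, which can overlap each other, gave a match on the coding strand in 15 of 43 start sites of tested ribosomal protein genes (34.9%), in 13.6% of all 32851 start sites and in 2 of 31 of tested proteasome genes (6.45%). On the other strand the shares were 16.3%, 13.7% and 16.1%. Protein-coding genes lower by at least 1 had a match at 98 of 743 start sites (13.2%), near the share of all start sites. Tested genes of other mRNAs known for a pyrimidine start had 4 of 18 (22.2%) on either strand. A link between the match and the falls was not tested. RefSeq start sites can be some bases off, so the exact first base was not used. Other mRNAs known for a pyrimidine start had a median of -0.04, against -0.77 for cytosolic ribosomal proteins and 0.09 for all genes. Of 23, 9 were lower (39.1%, against 28.4% of all genes) and 3 higher (13.0% against 37.5%). Without lysate 4, 7 were lower and 8 higher, where 29.2% and 38.3% of all genes were. Pabpc1, the cytoplasmic poly(A)-binding protein, fell by 1.84, from 11.54 ± 0.10 to 9.69 ± 0.18 (SD, n = 6), followed by Eif3a at -0.99, the growth-related Tpt1 at -0.55 and the elongation factor subunit gene Eef1b2 at -0.50. Eif3k at 0.53, Btf3 at 0.24 and Eif4a2 at 0.21 were higher.

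In the rest of the translation machinery, initiation factors lay near all genes. Aminoacyl-tRNA synthetases and mitochondrial ribosomal proteins had medians above that of all genes. Of 23 initiation factors 9 were higher (39.1%, against 37.5% of all genes) and 3 lower (13.0% against 28.4%). Their median was 0.04 (-0.01 without lysate 4), against 0.09 for all genes. Eif2b1 at 0.99 and Eif2b2 at 0.86 were among the higher. Eif4g3 at -0.58, Eif4g2 at -0.53 and Eif5b at -0.32 were the lower. Aminoacyl-tRNA synthetases, which load tRNAs, had 10 of 18 higher and 2 lower (median 0.27), led by Tars at 0.64; Eprs at -0.59 and Sars at -0.30 were the lower ones. Their lysate medians were 0.26 to 0.48 but for lysate 4, at -0.18. Mitochondrial ribosomal proteins, unlike cytosolic ones, had 37 of 76 higher and 18 lower, with a median of 0.29. Their medians were -0.11 and -0.18 in lysates 1 and 5, and 0.20 to 0.60 in the others. Mrpl19 at 1.50 and Mrps31 at 1.07 were the highest, and Mrpl52 at -2.20, Mrpl54 at -1.73, Mrps24 at -1.67 and Mrpl42 at -1.51 the lowest. Without lysate 4, 30 were higher and 21 lower, where 38.3% and 29.2% of all genes were.

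Within several multi-subunit complexes, though not in the proteasome, the mRNAs of different subunits moved in opposite directions. Where a subunit is called small, that is background, since no protein table was used. Respiratory complex I, which takes electrons from NADH, had 16 of 34 mRNAs lower and 10 higher (median -0.26). In a division made after the values were seen, the falls were all among its 28 accessory subunits (16 lower, 5 higher, median -0.42), with Ndufa3 at -2.10, Ndufa2 at -1.80, Ndufc1 at -1.78 and Ndufa6 at -1.61. Of 6 nuclear-encoded core subunits that carry the redox centres, 5 were higher and none lower (median 0.44), and without lysate 4, 4 were higher and 1 lower, with Ndufs3 at 0.69 and Ndufs8 at 0.59. The accessory Ndufa10, at 0.81, was the highest of the complex. Ndufa3 had total values from 11.51 to 11.66 and polyribosomal values of 9.26, 9.78, 9.50, 9.52, 9.05 and 9.70, with no overlap. Complexes III to V, including ATP synthase, had 20 of 36 lower and 9 higher (median -0.41). The ATP synthase epsilon subunit gene Atp5e fell by 4.19 at an _s_at probe set, and the small subunits Uqcr11, Uqcr10 and Cox8a by 2.01, 1.99 and 1.94. The Rieske protein gene Uqcrfs1 at 0.87 and the core genes Uqcrc1 at 0.60 and Uqcrc2 at 0.56 rose. Mitochondrial import also held both directions, with 13 of 28 lower and 10 higher. Its parts given next were divided after the values were seen. The small chaperones of the intermembrane space had 4 of 6 lower, among them Timm8b at -3.53, Timm13 at -2.17 and Timm8a1 at -1.72, and Tomm7, a small subunit of the outer membrane translocase, stood at -1.69. Among 14 channels and receptors 7 were higher and 6 lower (42.9%, against 28.4% of all genes), with Tomm40, the outer membrane pore, at 0.98 and Samm50, which inserts barrel proteins, at 0.97.

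The rings of Sm and LSm proteins, which wrap the small nuclear RNAs of the spliceosome, had 12 of 22 lower and 7 higher (median -0.49). Lsm3 at -1.95, Snrpg at -1.79, Lsm6 at -1.55 and Snrpe at -1.23 fell, while Snrpb at 1.08, Lsm11 at 0.94, Snrpc at 0.75 and Snrpb2 at 0.74 rose. Heterotrimeric G proteins, the relays of many brain receptors, divided by subunit. Of 8 gamma subunits, the short prenylated tails of the complex, 7 were lower and none higher (median -0.93), with Gng10 at -1.66, Gng3 at -1.22 and Gng12 at -1.04 after Gng13. Of 15 alpha and beta subunits, 8 were higher and 4 lower (median 0.25), with Gnb5 at 0.73, Gna13 at 0.68 and Gnb2 at 0.54 higher and Gnal at -0.71, Gna12 at -0.70, Gnai2 at -0.49 and Gnas at -0.28 lower. Another probe set of Gnai2 was higher by 0.98. The list of cytosolic folding machines, the CCT chaperonin and prefoldin, had 5 of 14 higher and 5 lower (median 0.09). In a division made after the values were seen, CCT had 4 of 8 subunits higher and 1 lower. Prefoldin, which hands CCT actin and tubulin, had 4 of 6 lower and 1 higher. Cct7 at 0.51 and Pfdn1 at -0.98 were the extremes. The signal peptidase and translocon group had 5 higher and 7 lower of 20 (median 0.00), with the tiny oligosaccharyltransferase subunit gene Ost4 at -2.21, the stress protein gene Serp1 at -1.55 and Sec11c at -1.40 lowest and Ssr2 at 0.59 highest. The vacuolar proton pump had 7 higher and 4 lower of 17, with Atp6v1d at 0.74 highest. Of all genes, 37.5% were higher and 28.4% lower.

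**Figure D3:**
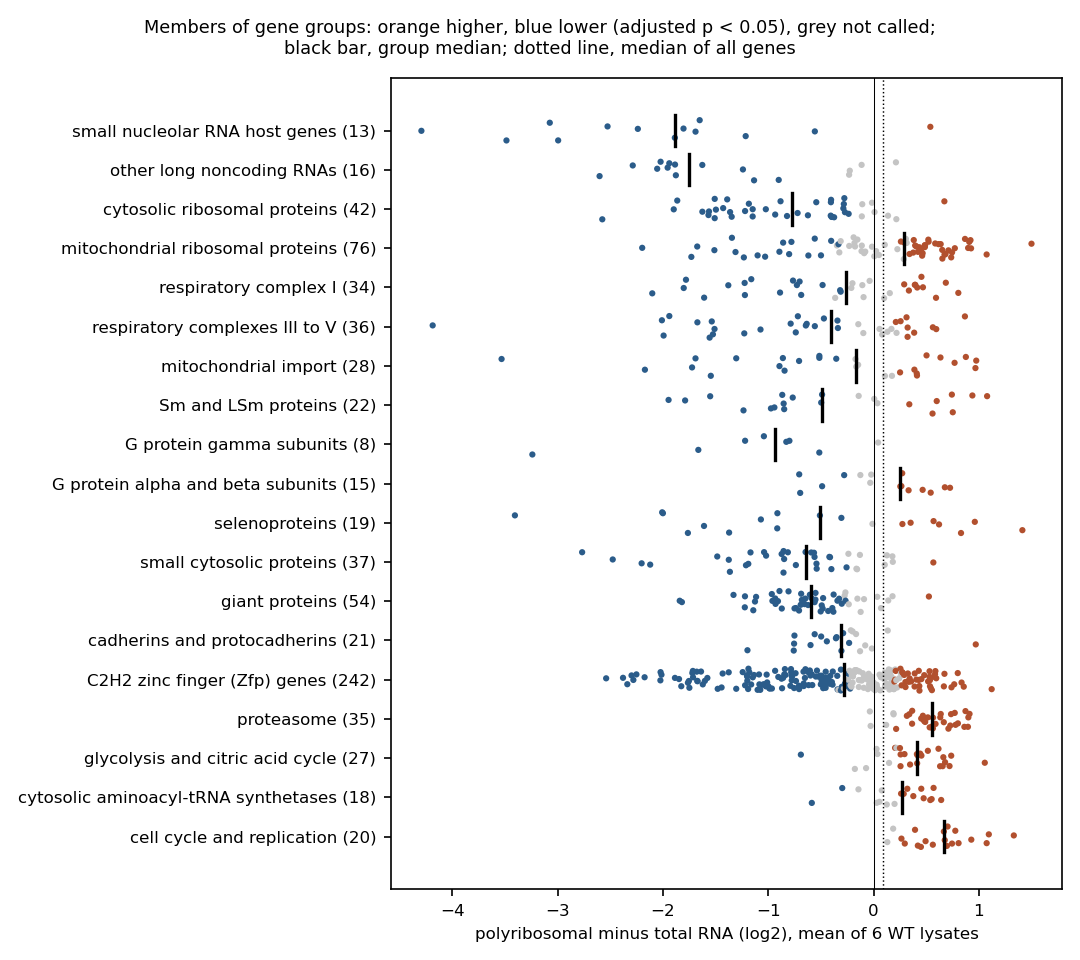
Polyribosomal minus total difference (x axis, log2, mean of 6 WT lysates) of every tested member of 19 gene groups (y axis, number of members in parentheses); colours give the call, the black bar the group's median and the dotted line the median of all genes, 0.09. Complexes such as the respiratory chain, the Sm and LSm ring and mitochondrial import spread to both sides, whereas proteasome and cell cycle genes lie to the right of the dotted line with few exceptions.

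A list of other small cytosolic proteins fell in the same way. Of its 37 members, 28 were lower (75.7%, against 28.4% of all genes), 12 by at least 1 (32.4% against 7.99%). The list had 1 higher member and a median of -0.65. The metal carriers were at its low end: the brain metallothionein gene Mt3 at -2.77, the copper chaperone genes Cox17 at -2.48 and Atox1 at -2.12, and Mt1 at -2.20. They were set apart after the values were seen. The riser was Crip2 at 0.57. Selenoproteins, whose mRNAs read a UGA codon as selenocysteine, had 11 of 19 lower (57.9%) and 7 higher (median -0.51). The share higher, 36.8%, was near the 37.5% of all genes. Selenoh at -2.01 and the peroxidase gene Gpx1 at -1.76 were also low, after Selenow. Selenop, the gene of the selenium carrier, went from 8.19 ± 0.31 in total to 6.19 ± 0.24 in polyribosomal RNA (SD, n = 6). The thioredoxin reductases lay high, with Txnrd3 at 1.41, Txnrd2 at 0.83 and Txnrd1 at 0.62, as did Selenos at 0.96. A relation to protein size within this list was not tested. The size of the falls varied between lysates: the median of small cytosolic proteins was -1.02 in lysates 1 and 5 and -0.35 to -0.67 in the others, and complex I stood at -0.75 and -0.62 in lysates 1 and 5 and between -0.12 and 0.02 in the others.

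A list of giant proteins, called so from background since size was not measured, was low as well. Of 54, 43 were lower and 1 higher (median -0.60), but only 8 were lower by at least 1. Pclo, a scaffold of the presynaptic active zone, had total values of 9.88, 9.83, 9.73, 9.37, 9.37 and 9.66 and polyribosomal values of 8.38, 7.89, 8.32, 7.28, 7.51 and 7.40, a difference of -1.84 (SE 0.12, adjusted p = 2.57e-07). Dst, a cytoskeletal crosslinker, stood at -1.82, the axon initial segment gene Ank3 at -1.33 and Csmd3 at -1.22; the nuclear envelope gene Syne2 was the riser, at 0.53. Without lysate 4, 3 were higher. The list's median was lowest in lysate 4, at -0.97, where those of the others were -0.36 to -0.68. Dync1h1, the dynein heavy chain, showed this most plainly: its differences were -0.71, -0.70, -0.21, -2.78, -1.20 and -1.73 in lysates 1 to 6, with total values all between 9.60 and 9.89. Smaller subunits of the motor rose, with Dync1li1 at 0.84 and Dync1i1 at 0.53. In the list of kinesins and dyneins, which leaves out Dync1h1, 8 of 21 were higher and 6 lower. These shares, 38.1% and 28.6%, were near the 37.5% and 28.4% of all genes. Kif3c stood at 0.64 and Kif3b at 0.61, against Kif1a at -0.76. Among tubulins and actins 4 of 13 were higher and 2 lower (1 lower without lysate 4). Some lists of membrane proteins also held more lower than higher genes, though protein length was not measured. Cadherins and protocadherins had 13 of 21 lower and 1 higher, with Cdh6 at -1.20 lowest and Cdh4 at 0.97 the riser. Pcdh9 (0.52 and -0.56), Pcdh10 (0.35 and -0.49) and Pcdh19 (0.46 and -0.36) had probe sets called in both directions. Voltage-gated channels had 14 of 34 lower and 6 higher, with the sodium channel gene Scn1a at -1.26 and the potassium channel gene Kcnh1 at 1.07.

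Protein-coding genes were also ordered by gene span, the distance from the first to the last base of the gene in GRCm38.p6. Span includes introns, so it stands only loosely for the length of an mRNA or protein. Of 171 genes that span under 2 kb, 46.2% were lower and 32.2% lower by at least 1, where 27.6% and 7.37% of all protein-coding genes were and 38.1% were higher. The second share was 29.01% without ribosomal protein and respiratory chain genes. From 10 to 20 kb 44.7% of genes were higher and 25.4% lower. Of 162 genes that span 500 kb or more, 45.7% were lower and 14.8% higher, but 9.88% were lower by at least 1. The lysates differed most for the shortest genes, where the median difference was -0.67 in lysate 1, -0.61 in lysate 5 and 0.11 in lysate 4. From 10 to 20 kb it ran from 0.10 to 0.24 over the 6 lysates.

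**Figure D4:**
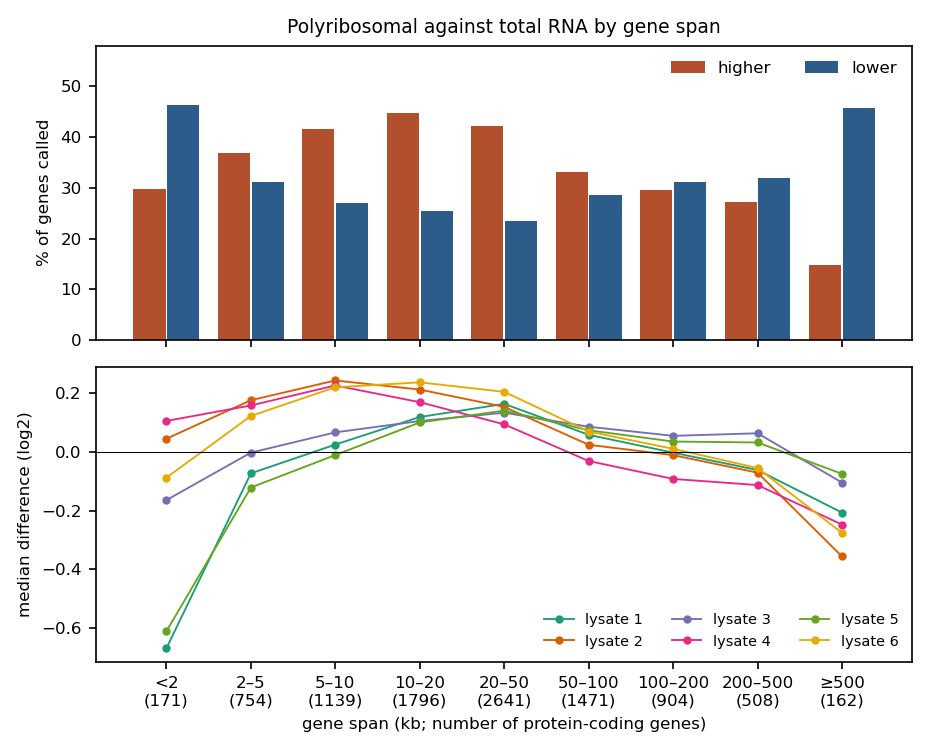
Top, percentage of protein-coding genes called higher (orange) or lower (blue) in polyribosomal RNA by gene span in kb (x axis, number of genes in parentheses); bottom, median difference (log2) in each of 6 WT lysates, 1 line per lysate. Calls of lower values are most frequent at both ends, at 46.2% and 45.7%, and the lines fan out for genes under 2 kb.

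The shares of large falls and rises varied with the level in total RNA. In total RNA bins from log2 4 to 15, the share of genes lower by at least 1 was 1.99% from 4 to 5, where little room is left above the dim limit, 6.15% from 5 to 6 and 8.90% to 10.9% in every bin above. The share higher by at least 1 was 1.17% from 4 to 5, went up to 3.85% at 7 to 8 and down to 0.33% at 10 to 11 and 0 above 11. Among the 10 genes with the brightest signals in total RNA, Hspa8 at 14.27 in total RNA, Tuba1a at 14.10 and Tubb2b at 13.81 did not pass (differences of -0.02, -0.05 and 0.09), and Cfl1, Ndrg4, Stmn3 and Ywhaz were higher by 0.21 to 0.33. The other three were lower, the ribosomal Rps28 by 1.51 and Rps29 by 1.50 and the actin-binding Tmsb10 by 1.04.

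Zinc finger genes of the Zfp series, most of which encode DNA-binding repressors, made up the largest low group. The array names 331, and 242 were tested. Of these 125 were lower (51.7%, against 28.4% of all genes), 52 by at least 1 (21.5% against 7.99%). Another 43 were higher (17.8% against 37.5%), and the median was -0.28. The lowest with levels measured in both RNAs were Zfp932 at -2.38, Zfp995 at -2.34 and Zfp40 at -2.30, and Zfp975 fell below the dim limit, at least 2.81-fold; the highest was Zfp647 at 1.12. Zfp932 had total values of 7.79, 8.48, 8.39, 8.02, 7.58 and 8.02 and polyribosomal values of 5.64, 5.21, 6.13, 6.38, 6.01 and 4.64. No values overlapped, and the polyribosomal values of lysates 2 and 6 were the lowest. The 5 transcripts whose difference varied most between lysates included another member, Zfp942, with differences of -1.45, -2.42, -1.10, -0.65, -0.41 and -2.84. The RGS-binding protein gene Rgs7bp, at -2.10, -2.84, -1.09, -0.78, -0.95 and -3.11, and Lcorl and Lrif1, a pair of nuclear protein genes, also had their 3 lowest differences in lysates 1, 2 and 6. Nudt21, a subunit of a 3' end processing factor, went the other way in 1 lysate at the probe set chosen for its spread: its differences were 0.35, 1.22, 0.52, 1.73, -1.02 and 1.76, and its brightest probe set stood at 0.19 (adjusted p = 0.151).

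Groups in which most members rose included the proteasome, glycolysis with the citric acid cycle, and the cell cycle. The proteasome, which degrades ubiquitin-tagged proteins, had 30 of 35 mRNAs higher and none lower (85.7% higher, against 37.5% of all genes), with a median of 0.56. In the core particle 13 of 15 were higher (median 0.59) and in the regulatory cap 17 of 20 (median 0.52), a division made after the values were seen. Psmd7 had total values from 10.07 to 10.34 and polyribosomal values from 10.91 to 11.21, with every lysate higher by 0.79 to 1.07. Genes of glycolysis and the citric acid cycle had 20 of 27 higher and 1 lower (median 0.41), with Suclg1 at 1.06, Ldhb at 0.74 and Aldoc at 0.72; the lower one was Aldoa, at -0.69 at an _x_at probe set. Cell cycle and replication genes, active in the glial progenitors that still divide in cortex at this age, had 18 of 20 higher and none lower (median 0.67). Ccnd2, a D-type cyclin, had total values of 8.79, 8.97, 8.80, 8.61, 8.67 and 8.67 and polyribosomal values of 9.89, 9.85, 9.84, 9.68, 9.94 and 9.87. No values overlapped, and the difference was 1.09 (SE 0.083, adjusted p = 9.03e-07). Cdca8 at 1.33 and the helicase subunit gene Mcm5 at 1.07 also rose. Cholesterol synthesis had 8 of 18 higher and 2 lower, with Pmvk at 1.21, Ebp at 0.98 and Fdps at 0.90 against Tm7sf2 at -1.81 and the feedback regulator gene Insig1 at -0.71.

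Known classes of translational control gave mixed values, where 37.5% of all genes were higher and 28.4% lower. mRNAs with an iron-responsive element near their start are held off ribosomes when iron is scarce; in Tfrc, such elements act on mRNA stability instead. Of 5 tested, 3 were lower and none higher. The ferritin heavy chain gene Fth1 had total values from 13.30 to 13.41 and polyribosomal values from 11.68 to 12.04, a difference of -1.41 (SE 0.085, adjusted p = 1.7e-07). Epas1, a hypoxia transcription factor, stood at -0.80 and Tfrc, the transferrin receptor, at -0.71. Of 13 mRNAs with regulatory upstream reading frames, which catch ribosomes before the main frame, 5 were lower and 4 higher. The stress transcription factor genes Ddit3 at -0.95 and Atf4 at -0.45 were lower, as were Slc35a4 at -0.71, Atf5 and Ppp1r15a. The last 2 had means below the dim limit in the pool, and 2 of the 13 passed the filter through total RNA alone. Bace1 at 0.77, Uchl1 at 0.57, Ppp1r15b at 0.40 and Azin1 at 0.21 were higher. Among genes of microRNA silencing and mRNA decay, 7 of 20 were higher and 5 lower. Ago2, which carries the microRNA, rose by 0.99 and the deadenylase gene Cnot8 by 0.99, while the related Cnot6 fell by 1.47, the decay factor gene Upf2 by 1.17 and Cnot7 by 1.13.

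Synaptic genes lay on both sides, where 37.5% of all genes were higher and 28.4% lower. The share of vesicle and release genes called higher, 37.5%, was that of all genes. Of 32 genes of synaptic vesicles and release, 12 were higher and 5 lower (8 lower without lysate 4), with Rab3b at 0.98, Napa at 0.83 and Syn2 at 0.70 against Slc17a7 at -0.99 and Syp at -0.71. Glutamate receptors and their partners had 5 higher and 7 lower of 18. Cacng2, which escorts AMPA receptors, fell by 1.52, and the subunit genes Gria2 and Gria3 by 0.80 and 0.63, while Cacng5 rose by 0.71, Gria1 by 0.53 and Grm2 by 0.51. Lysate 5 stood apart for this list, with a median of 0.20 against -0.17 to -0.06. GABA-A receptor subunits had 5 of 9 lower and none higher, with Gabra2 at -1.67, Gabra4 at -0.84 and Gabra5 at -0.54. The 5 became 3 when lysate 1 or lysate 6 was left out. mRNAs known to travel into dendrites had 8 lower and 3 higher of 19. Cnih2, a small AMPA receptor partner, stood at -2.09, Homer2 at -0.90, and the scaffold gene Dlg4 at -0.89; Bdnf, the neurotrophin, stood at 0.77, Dlgap4 at 0.55 and Dlgap2 at 0.31. Axon guidance genes had 16 of 46 lower and 11 higher, with the netrin receptor gene Dcc at -1.36 and Efna3 at -1.26 lowest and Sema7a at 0.59 highest. Neuropeptide genes had 5 higher and 2 lower of 16 (1 lower without lysate 4), led by Penk at 0.82.

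Markers of single cell types lay on both sides, where 37.5% of all genes were higher and 28.4% lower. Astrocyte markers had 5 of 10 higher and 1 lower (median 0.32), with Mlc1 at 1.32 and Fgfr3 at 1.13 against Gfap at -0.32. The direction of Gfap turned with the probe set, since another was higher by 1.17. The astrocyte markers Aqp4 (0.45 and -0.85) and Slc1a3 (0.62 and -0.32) also had probe sets called in both directions. So did the excitatory neuron marker Neurod1 (0.43 and -0.36). Excitatory neuron markers had 2 higher and 3 lower of 11 and interneuron markers 3 higher and 4 lower of 11, with the calcium buffer gene Calb2 at 1.23 and Reln at -0.87. Of 6 oligodendrocyte lineage markers 3 were higher, among them Olig2 at 0.88 and Mbp at 0.75, and 1 was lower, Pdgfra at -0.32. Of 4 microglial markers 2 were higher and Aif1 was lower, at -1.32. Of 5 endothelial and pericyte markers 1 was higher, as was 1 of 5 markers of other brain regions (without lysate 4, 1 of those was also lower), and the choroid plexus and meninges list had 2 higher and 1 lower of 3.

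The probe set chosen could decide the direction. Of 4217 genes with at least 2 tested probe sets, 201 (4.77%) had 1 called higher and another called lower, in a comparison that called 36.2% of probe sets higher and 29.1% lower, and for 98 of them the gap was at least 1. A further 2267 genes had at least 2 probe sets called in 1 direction and none in the other. Snapin, a partner of the SNARE machinery, had the widest gap. Its brighter probe set, of the _s_at kind, rose from 9.32 to 10.23, with differences of 1.14, 0.78, 1.05, 0.35, 0.92 and 1.23, and the other fell from 7.02 to 5.28, with differences of -1.77, -1.35, -2.11, -1.68, -1.93 and -1.63. Tra2a, a splicing regulator, stood at 0.47 and -2.14, and the initiation factor gene Eif5 at 0.56 and, with a pool value below the dim limit, at least 2.46-fold lower. The splicing and processing genes Sfpq and Cpsf6 were also among the 10 widest, with Bbip1, Etnk1, Sike1, Marchf7 and Lrrc4c. For 9 of these 10 genes, the probe set that fell was the dimmer in total RNA, whereas among all 201 this was so for 109 (54.2%). Only probes, not transcripts, were told apart here.

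**Figure D5:**
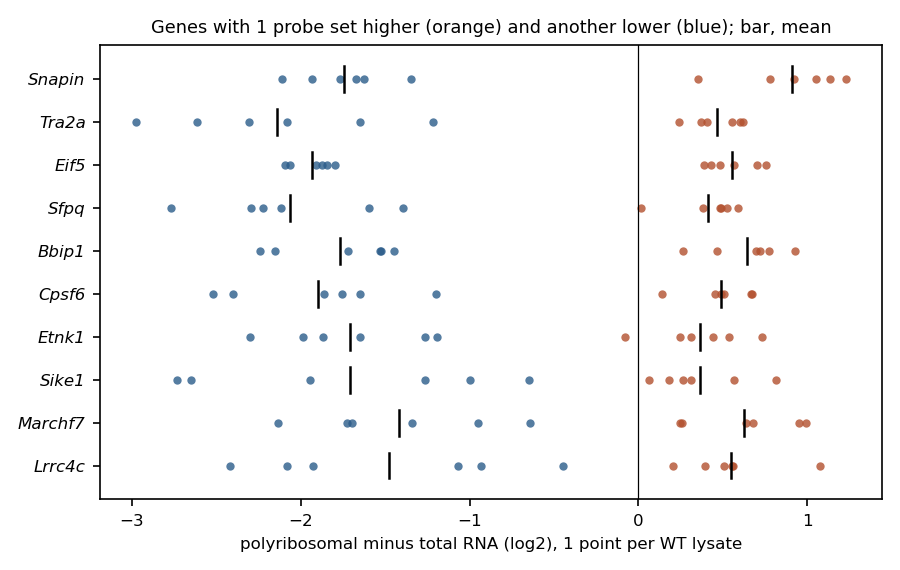
Polyribosomal minus total difference (x axis, log2) at 2 probe sets of each of the 10 genes with the widest gap (y axis); each point is 1 of 6 WT lysates, orange for the probe set called higher and blue for the one called lower, and bars mark the mean. For each gene the orange and blue points do not overlap.

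The Fmr1 KO lysates, which share no array with the WT ones, gave nearly the same differences. Over the 17893 probe sets the WT and KO differences correlated at r = 0.978, a value across probe sets that are not independent replicates. Of the 9726 genes 290 were higher and 736 lower by at least 1 in KO (2.98% and 7.57%). The lower lists shared 682 genes, 87.8% of the WT and 92.7% of the KO list, and the higher lists 166, 83.4% and 57.2%. No gene was called in opposite directions. In KO, where 38.6% of genes were higher and 28.3% lower, 34 ribosomal protein mRNAs were lower (35 in WT), 31 proteasome mRNAs higher (30), 101 noncoding RNAs lower (101), 19 cell cycle mRNAs higher (18) and 122 Zfp mRNAs lower (125). In KO the difference was 2.45 for Fxr2, -4.70 for Selenow and -5.20 for ND5. In the test of the difference between genotypes limma called 0 of 18544 probe sets (0% called), with a lowest adjusted p = 0.999, and 442 had an unadjusted p under 0.05. This does not show that the genotypes were alike for any single transcript.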

How the data were processed

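The 24 Affymetrix Mouse 430 2.0 arrays, 6 for each RNA of WT and Fmr1 KO cortex, were used through the deposited table of the whole series, which holds 1 log2 value per probe set and array made by the authors with GCRMA, per the submitters' processing notes. Its version, and whether all arrays were normalized together, are not given in the sources used here. GCRMA makes the arrays' distributions alike, so differences are relative to the average transcript, and array values carry no count of molecules. Of 45037 probe sets 34945 have 1 symbol in the platform annotation, 932 several and 9160 none. Symbols were updated through Entrez gene numbers to the RefSeq table for GRCm38.p6. Scanner files were not used here.

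Probe sets at log2 4 or more in at least 6 of 12 WT arrays were fitted with limma 3.58.1 in R 4.3.3, as polyribosomal against total RNA with the lysate as a fixed block (two-sided, Benjamini-Hochberg over all 17893 tested, threshold 0.05). The labels give both RNAs of a number to 1 lysate; residuals of same-numbered arrays correlated at 0.02 to 0.53, those of other pairs at -0.29 to 0.32. The spread is that between pools of 2 mice. For gene counts, the probe set with the highest mean over the 12 arrays stood for its gene. A plain probe set has no _x_at, _s_at or _a_at ending. Where 1 RNA's mean lay under log2 4, a bound ("at least") against that limit is given. The genotype difference was tested across all 24 arrays. The WT fit of polyribosomal against total RNA was also run on simulated data, and the genotype fit was not.

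Named were the 15 largest falls and rises, the extremes of each of 49 gene lists, the widest opposite pairs of probe sets, the 5 transcripts most variable between lysates and the brightest genes; other genes named were chosen after their values were seen. The members and lists were chosen with earlier results of these data known, and 12 lists were divided by role later still. Counts for lists are descriptions, to be read against the percentage of all genes. Alternatives were the block, the filter, the scaling, eBayes settings, the probe set per gene and leaving out each lysate. Relation to protein length was not analysed here, and gene span was used in its place.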

Additional observations from a re-analysis of the deposited data

Results flagged for a closer look

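The 6 lysate differences of each named probe set and of each gene list's median were searched for a single lysate far from the others, by Dixon's test at its 95% level. Of 519 sets of 6, 30 held one (5.78%), and chance gives about 1 in 20. Lysate 4 was the one apart in 18 of the 30, with 10 on the low and 8 on the high side.

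Among the lists, the median of glutamate receptor genes was highest in lysate 5 (0.20, next -0.06), that of aminoacyl-tRNA synthetases lowest in lysate 4 (-0.18, next 0.26) and that of selenoproteins lowest in lysate 1 (-0.74, next -0.55).

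In lysate 4, the difference was the lowest of the 6 for Aldoc (0.21, next 0.77), Bace1 (0.27, next 0.66), Ldhb (0.40, next 0.76), Samm50 (0.68, next 0.95) and Uqcrc2 (0.15, next 0.59). The same held for both flagged probe sets of the chaperonin gene Cct7 (0.031, next 0.55, and 0.20, next 0.66) and of the splicing gene Sfpq (-0.28, next 0.27, and 0.018, next 0.38). It was the highest of the 6 for Bdnf (1.43, next 0.74), Btf3 (0.93, next 0.46), Cfl1 (0.49, next 0.34), Gabra5 (-0.24, next -0.53), Gnas (-0.060, next -0.28), Homer2 (-0.49, next -0.91), Ndufs8 (1.24, next 0.74) and Rpl7l1 (1.38, next 0.78).

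In lysate 5, Bola2 (-3.68, next -2.77), Efna3 (-1.01, next -0.62), Fth1 (-1.71, next -1.41) and Gpx1 (-2.43, next -1.71) were lowest. In lysate 2, Cnot6 was lowest (-1.76, next -1.17), and Dlgap4 (0.43, next 0.05), Gfap (0.18, next -0.41) and Rps28 (-1.31, next -1.49) were highest. Gas5 was lowest in lysate 3 (-4.59, next -3.43) and Nfkbia lowest in lysate 1 (1.07, next 1.55). For genes with several probe sets these values belong to 1 of them, and for Bace1, Bola2, Btf3, Cnot6, Dlgap4, Efna3, Gfap, Ndufs8, Nfkbia, Rpl7l1, Sfpq and the second of Cct7 it is not the brightest.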

How the results depend on the processing

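No named probe set changed sign past the threshold under the alternatives run. The balance of other pyrimidine-start mRNAs turned without lysate 4, from 3 higher and 9 lower to 8 and 7. Of 6151 comparisons of 479 named probe sets with their main value, 6042 kept their side of the threshold, 82 lost the call and 27 gained one. Without the lysate as a block, 6261 probe sets were higher and 5039 lower, against 6483 and 5214 with this replicate block. Leaving out 1 lysate gave 3174 to 3728 genes higher and 2521 to 2841 lower, 174 to 233 higher and 759 to 815 lower by at least 1, and 150 to 225 genes with opposite probe sets. Centring arrays on their median moved the median difference from 0.07 to 0.11 and the higher share of calls from 55.4% to 59.2%. With only plain probe sets, fewer genes of a list were tested. Lower calls were then 10 for cytosolic ribosomal proteins, 3 for other pyrimidine-start mRNAs, 8 for complex I, 13 for complexes III to V, 1 for small secretory and membrane proteins and 16 for small cytosolic proteins, and higher calls 5 for initiation factors, 5 for G protein alpha and beta subunits and 12 for glycolysis and the citric acid cycle. With no filter 199 long noncoding RNAs were lower, and with a filter at log2 6, 45; that filter also left 77 Zfp genes and 2 genes with upstream reading frames lower and 11 cell cycle genes higher. GABA-A receptor subunits called lower were 3 to 6 when a lysate was left out. The genotype test called 0 probe sets under every alternative run; with the replicate block its lowest adjusted p was 0.115 and 523 had an unadjusted p under 0.05. With the median over a gene's probe sets, the median of the cell cycle list was 0.54 and that of excitatory neuron markers 0.05. The alternatives for protein length were not run. Of genes tested, 72 passed the filter through total RNA alone, 18 of them long noncoding, so dim signals limit their values.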
